A study of Mus musculus with 12 samples.

Results

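The transcription factor p53, encoded by *Trp53*, and 9 of its direct target genes were examined in ATDC5 cells after knockdown of *Ddx5*, in medium and with inflammatory cytokines. The genes were taken by name from the 46731 genes of the expression table: *Trp53*, *Cdkn1a*, *Mdm2*, *Ccng1*, *Sesn2*, *Gadd45a*, *Phlda3*, *Zmat3*, *Btg2* and *Eda2r*. All 10 were in the table, and 9 of them were expressed highly enough to be tested. *Eda2r* was not and is given by its levels alone.

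p53 is held at a low level by MDM2, a ubiquitin ligase that marks it for degradation and whose own gene p53 activates, so that the 2 proteins form a feedback loop. When DNA is damaged or the cell is stressed, p53 is stabilized by changes to the protein, binds response elements near its target genes and activates genes that halt the cell cycle, repair DNA, adjust metabolism or lead to cell death. DDX5 (p68) is an RNA helicase that is also known as a coactivator of p53, as is its paralogue DDX17 (p72). The level of an mRNA therefore does not report the amount or the activity of the p53 protein, which was not measured here.

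ATDC5 is a mouse teratocarcinoma-derived chondrogenic line. The cells stably carried a lentiviral hairpin after puromycin selection, either the control (shRNA-NC) or 1 hairpin directed at *Ddx5* (shRNA-*Ddx5*), and each line was kept for 6 h without stimulation (medium) or with IL-1β and TNF-α together (cytokines), which gave 4 groups of 3 libraries from independent experiments. The knockdown lowers the mRNA and does not delete the gene. With 1 hairpin directed at *Ddx5*, lower *Ddx5* cannot be told apart from other effects of the hairpin or other differences between the lines. Changes after the knockdown are differences between shRNA-*Ddx5* and shRNA-NC cells in this sense. In shRNA-*Ddx5* cells, *Ddx5* stood at 32.3% of the control level in medium and 32.1% with cytokines, while *Ddx17* rose by 1.03 on the log2(FPKM + 1) scale in medium and by 1.52 with cytokines. In medium its mean was 46.5 ± 2.03 FPKM in shRNA-NC and 95.8 ± 3.53 in shRNA-*Ddx5* cells (SD, n = 3), and with cytokines 30.2 ± 4.06 and 88.0 ± 0.786 (SD, n = 3). FPKM, as the authors computed it, counts fragments relative to gene length and library size.

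Between 14119199 and 19276520 fragments lay on genes in each library, and log2 values correlated at 0.973 to 0.993 within groups and at 0.897 to 0.961 between groups. Of 8 chondrogenic markers, 3 (*Col2a1*, *Sox9* and *Col11a1*) passed the filter for testing. The 8 markers summed to 38.0 to 43.4 FPKM per library in shRNA-NC and 29.0 to 32.0 in shRNA-*Ddx5* cells in medium, and to 12.3 to 17.6 and 9.36 to 9.49 with cytokines. The 3 tested markers did not move together after the knockdown. *Col2a1* fell in medium from a mean of 12.4 to 0.899 FPKM (log2 change -2.80, adjusted p = 5.9e-06) and *Col11a1* rose from 0.897 to 4.78 (1.601, adjusted p = 2.3e-06), while *Sox9* was not called (-0.19, adjusted p = 0.0947). With cytokines *Col2a1* (-1.98) and *Sox9* (-0.61) fell and *Col11a1* rose (1.65). The part of these changes in the results below was not tested. The 4 endothelial markers summed to at most 0.151 FPKM and the 5 epithelial markers to at most 0.116, while the 6 leukocyte markers summed to 1.29 to 2.84, with *Cd68* alone above the filter.

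A p53 response element consists of 2 copies of a half-site of 10 bases. The 3000 bases on each side of the start of each gene were searched for the 20-base consensus without a spacer, with its 4 fixed bases kept. The pattern reads the same on both strands. The matches with at most 2 mismatches near the 10 genes are given because they show which of the genes carry a match of this kind close to the start. Each is printed 5′ to 3′ on the strand of its gene, with capitals for bases that match the consensus and lower case for mismatches:

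*Zmat3*: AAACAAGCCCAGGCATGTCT
*Ccng1*, inside the gene: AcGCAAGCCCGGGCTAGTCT
*Ccng1*, upstream: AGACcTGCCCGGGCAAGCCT
*Cdkn1a*: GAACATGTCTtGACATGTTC
*Eda2r*: GGGCAAGTCCGGGCcTGTgT

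The element of *Zmat3* matched the consensus without a mismatch. It lies at chr3:32418480-32418499 (GRCm39), 1324 bases downstream of the start, in an intron of the coding transcripts and an exon of a non-coding transcript. The *Cdkn1a* element, with 1 mismatch, lies at chr17:29309902-29309921, 42 bases upstream of the start. *Ccng1* has an element with 1 mismatch on either side of its start, at chr11:40646289-40646308, 144 bases upstream, and at chr11:40645763-40645782, 382 bases downstream in an intron. The *Eda2r* element, with 2 mismatches, lies at chrX:96420140-96420159 in an untranslated exon. Of 12330 tested genes searched in the same way, 22 (0.178%) had an element without a mismatch, 134 (1.09%) one with at most 1 and 808 (6.55%) one with at most 2. The best match was 3 mismatches for *Trp53* and *Mdm2* and 4 for *Sesn2*, *Gadd45a*, *Phlda3* and *Btg2*. A match of letters was not tested for binding, and elements outside this window, with a spacer or with a change in a fixed base were not searched. The start is the outermost position of the gene in the table, so distances to other starts of the same gene differ.

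**Figure D1:**
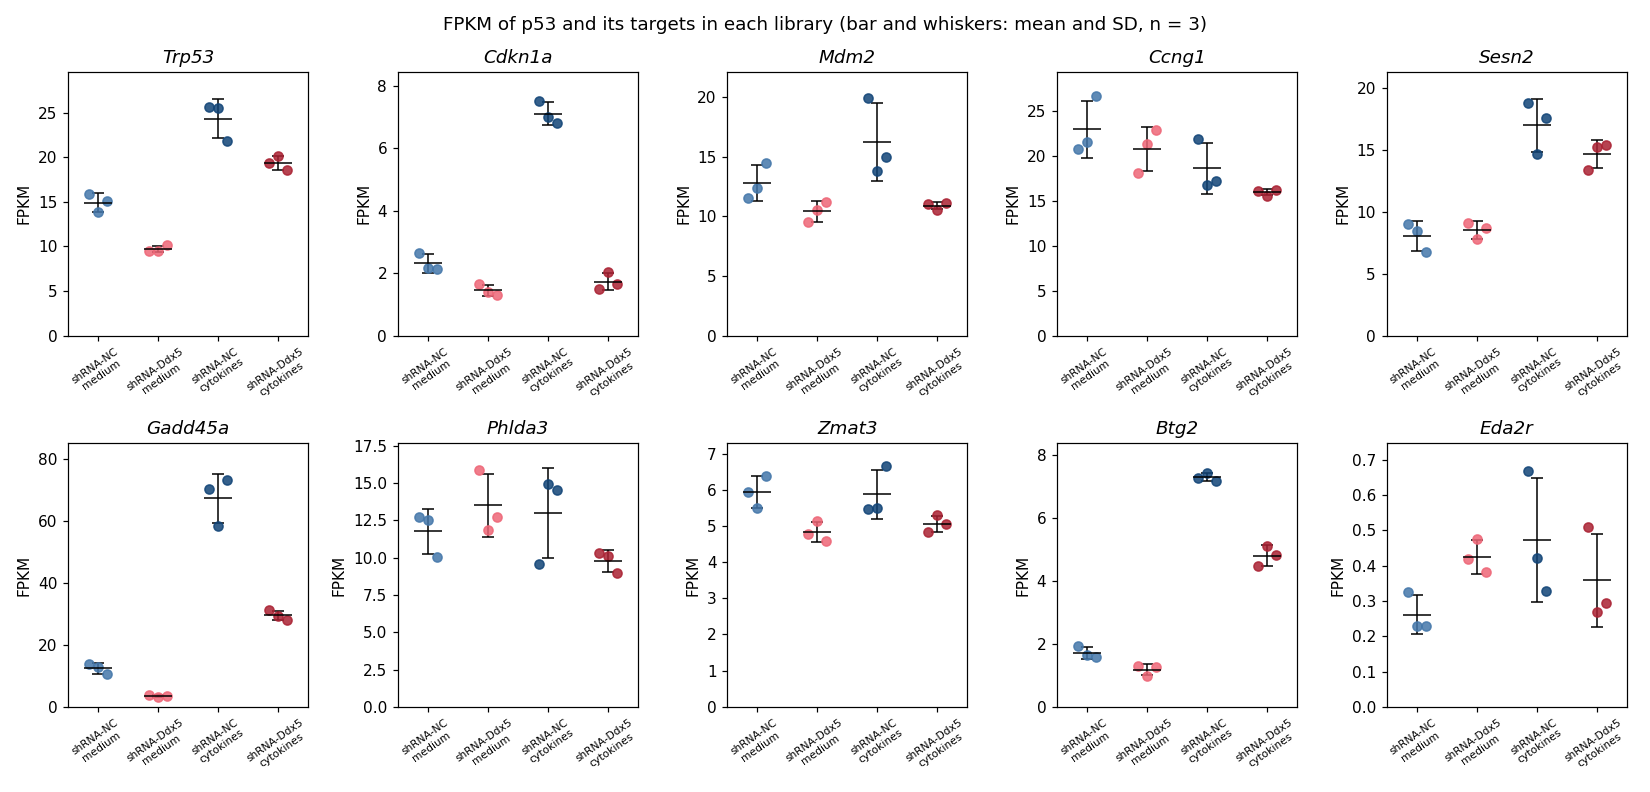
FPKM (y axes, each starting at 0) of the 10 genes in each of the 12 libraries, by group (x axes); points are libraries, and the bar and whiskers give the mean and SD (n = 3). *Cdkn1a* reached 6.80 to 7.50 FPKM with cytokines in shRNA-NC cells and at most 2.04 in shRNA-*Ddx5* cells, while *Gadd45a* and *Btg2* rose with cytokines in both.

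*Trp53* and 3 of its targets, *Cdkn1a*, *Gadd45a* and *Btg2*, were lower in shRNA-*Ddx5* than in shRNA-NC cells both in medium and with cytokines. In medium, 5 of the 9 tested genes fell after the knockdown and none rose, the fifth being *Zmat3*. At the same threshold, an adjusted p under 0.05 by limma, 21.7% of all 12368 genes tested fell and 25.3% rose (47% in all). With cytokines 5 of the 9 also fell and none rose, with *Mdm2* in place of *Zmat3*, where 22.1% of all genes fell and 23.5% rose (45.6% in all). Falling in both media was seen for 14.3% of all genes. The libraries of the 2 cell lines did not overlap for 6 of the 9 genes in medium, all lower after the knockdown, where 24.8% of all genes were lower and 28.7% higher in this way (53.5% in all). With cytokines they did not overlap for 7 of the 9, again all lower, where 29.9% of all genes were lower and 31.7% higher (61.6% in all). *Eda2r*, which was too low to test, went the other way in medium without overlap. It was at 0.229 to 0.325 FPKM in shRNA-NC and 0.381 to 0.476 in shRNA-*Ddx5* cells, and its groups overlapped with cytokines. The median change of the 9 genes was -0.27 in medium and -0.35 with cytokines on the log2(FPKM + 1) scale, beside 0.03 and 0.01 over all genes tested. Scaling to the sum of fragments changed the split over all genes in medium from 3131 higher and 2686 lower to 2480 higher and 3353 lower. With cytokines it was 2906 higher and 2739 lower, 2489 and 3126 with that scaling, and 2616 and 2922 with quantile normalization. Without shRNA-NC medium replicate 1, 3 of the 9 genes were called in medium, as the calls of *Zmat3* and *Btg2* were lost. In whole cultures, fewer cells with a transcript and less of it per cell cannot be told apart.

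**Figure D2:**
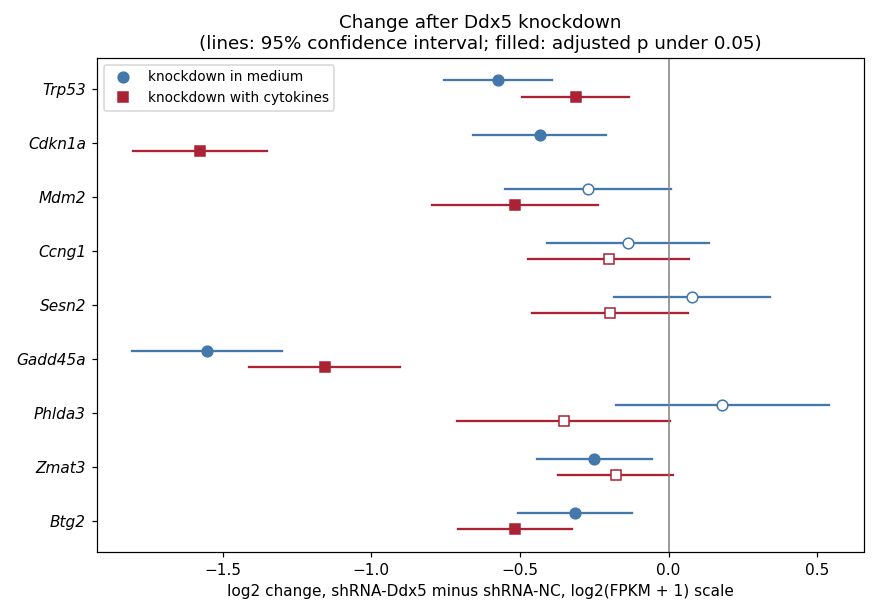
Change of the 9 tested genes after *Ddx5* knockdown (x axis, log2 difference of shRNA-*Ddx5* minus shRNA-NC on the log2(FPKM + 1) scale) in medium (circles) and with cytokines (squares); lines are 95% confidence intervals and filled symbols have an adjusted p under 0.05. The *Cdkn1a* change went from -0.43 in medium to -1.58 with cytokines, while that of *Gadd45a* was -1.55 and -1.16.

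*Trp53* (gene 22059, chr11:69471174-69482699, plus strand) was lower after the knockdown in both media. In medium its FPKM was 15.8, 13.8 and 15.1 in the shRNA-NC libraries and 9.45, 9.50 and 10.1 in the shRNA-*Ddx5* libraries. With cytokines it was 25.6, 25.5 and 21.8 in shRNA-NC and 19.3, 20.1 and 18.5 in shRNA-*Ddx5* cells. None of the groups overlapped, and both cell lines had more *Trp53* mRNA with cytokines than without. The knockdown left 64.9% of the control level in medium (log2 change -0.57, SE 0.08, adjusted p = 2.1e-04) and 79.5% with cytokines (-0.31, adjusted p = 0.0091). The fall was called in all 22 alternative fits in each medium. A processed pseudogene, *Trp53-ps* on chromosome 17, resembles the mRNA closely enough that reads could be shared, and it held 1.21% to 3.06% of the fragments of both genes in each library.

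*Mdm2*, which encodes the ligase that degrades p53, was lower after the knockdown with cytokines, at 67.2% of the control. Its FPKM with cytokines was 19.9, 13.8 and 14.9 in shRNA-NC and 10.99, 10.5 and 11.1 in shRNA-*Ddx5* cells (log2 change -0.52, SE 0.13, adjusted p = 0.0063). In medium it was 11.5, 12.4 and 14.5 in shRNA-NC and 9.49, 10.5 and 11.2 in shRNA-*Ddx5* cells. The groups did not overlap in either medium, but the change in medium was not called (-0.27, adjusted p = 0.1001). It was called with scaling to the sum of fragments (-0.36, adjusted p = 0.0242) and without shRNA-NC cytokines replicate 1, the library highest in *Mdm2* (adjusted p = 0.0294). That library is outside this contrast, so the change stayed at -0.27 and only the spread shared by the 4 groups differed. *Ccng1*, which encodes cyclin G1, a protein that acts on MDM2 through a phosphatase, had the highest level of the 10 genes in medium, 23.0 ± 3.18 FPKM (SD, n = 3) in shRNA-NC cells. Its change was -0.14 in medium (95% confidence interval -0.41 to 0.13, adjusted p = 0.390) and -0.20 with cytokines (-0.47 to 0.07, adjusted p = 0.206).

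Of the 9 targets, 3 act on the cell cycle: *Cdkn1a* encodes p21, the cyclin-dependent kinase inhibitor through which p53 halts cells in G1, *Gadd45a* encodes a stress sensor that binds p21 and PCNA, and *Btg2* encodes an antiproliferative protein that recruits the CCR4-NOT deadenylase. *Cdkn1a* was low in medium, with 2.64, 2.15 and 2.12 FPKM in shRNA-NC and 1.64, 1.39 and 1.31 in shRNA-*Ddx5* cells. With cytokines it was 7.50, 6.999 and 6.80 in shRNA-NC and 1.49, 2.04 and 1.65 in shRNA-*Ddx5* cells. The highest shRNA-*Ddx5* library with cytokines lay below all 3 unstimulated control libraries. *Cdkn1a* was thus at 62.7% of the control in medium (log2 change -0.43, SE 0.10, adjusted p = 0.0049) and at 24.3% with cytokines (-1.58, SE 0.10, adjusted p = 1.1e-06). These values rest on 48 to 267 fragments per library.

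*Gadd45a* had the greatest fall of the 9 tested genes in medium. Its FPKM there was 13.9, 12.9 and 10.4 in shRNA-NC and 3.87, 3.21 and 3.58 in shRNA-*Ddx5* cells. With cytokines it was 70.3, 58.3 and 73.4 in shRNA-NC and 31.2, 29.2 and 28.1 in shRNA-*Ddx5* cells. The groups lay far apart, and the knockdown left 28.6% of the control level in medium (-1.55, SE 0.12, adjusted p = 2.6e-06) and 43.9% with cytokines (-1.16, SE 0.12, adjusted p = 1.7e-05). A non-coding gene on the opposite strand, *E230016M11Rik*, overlaps it by 809 bases and had 2 to 18 fragments per library. Whether the counting used strand is not given in the sources used here, so reads of the 2 genes in the overlap cannot be told apart.

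*Btg2* was at 1.92, 1.65 and 1.58 FPKM in shRNA-NC and 1.28, 0.988 and 1.28 in shRNA-*Ddx5* cells in medium. With cytokines it was at 7.26, 7.43 and 7.18 in shRNA-NC and 4.45, 5.12 and 4.82 in shRNA-*Ddx5* cells. No 2 groups overlapped. The knockdown left 69.0% of the control level in medium (-0.32, SE 0.09, adjusted p = 0.0120) and 65.8% with cytokines (-0.52, SE 0.09, adjusted p = 6.3e-04). The call in medium was lost without shRNA-NC medium replicate 1 (adjusted p = 0.0501), the library with the most *Btg2* in its group.

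The other 4 targets had smaller differences or none that passed the test. *Zmat3*, which encodes an RNA-binding zinc finger protein and carries the element without a mismatch, was at 5.94, 5.51 and 6.38 FPKM in shRNA-NC and 4.79, 5.14 and 4.58 in shRNA-*Ddx5* cells in medium. The groups did not overlap, and the fall of 0.25 on the log2 scale had an adjusted p of 0.0369. It was lost in 6 of 12 fits that left out 1 library (adjusted p up to 0.121) and in 4 of 10 other alternatives, among them quantile normalization (-0.19, adjusted p = 0.121). In the leave-out fits the call was lost without replicates 1 and 3 of shRNA-NC medium, of shRNA-*Ddx5* medium and of shRNA-*Ddx5* cytokines. The cytokine libraries are outside this contrast, and leaving them out kept the change at -0.25. With cytokines *Zmat3* changed by -0.18 (adjusted p = 0.122). The antisense gene *4930429B21Rik* overlaps *Zmat3* by 177 bases and had 4 to 11 fragments per library.

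*Sesn2* encodes sestrin 2, which restrains mTORC1 under stress, and the knockdown changed it by 0.08 in medium (95% confidence interval -0.18 to 0.34, adjusted p = 0.623) and by -0.20 with cytokines (-0.46 to 0.07, adjusted p = 0.202). The groups overlapped in both media. *Phlda3*, which encodes an inhibitor of AKT at the membrane, had mean levels of 9.81 to 13.5 FPKM in the 4 groups and overlapped between shRNA-NC and shRNA-*Ddx5* cells in both media. In shRNA-NC cells with cytokines, replicate 1 of *Phlda3* was at 9.55 FPKM and the other libraries at 14.95 and 14.5. The change with cytokines was not called with all libraries (-0.35, adjusted p = 0.0985) and was called without that replicate (-0.55, adjusted p = 0.00831). *Eda2r*, a receptor of the TNF receptor superfamily, was at 0.261 ± 0.0557 FPKM in shRNA-NC and 0.425 ± 0.0477 in shRNA-*Ddx5* cells in medium (SD, n = 3). With cytokines it was at 0.473 ± 0.176 and 0.358 ± 0.132 FPKM (SD, n = 3), and each library held 20 to 65 of its fragments.

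The cytokines raised *Trp53*, *Gadd45a*, *Btg2* and *Sesn2* in both cell lines, and *Cdkn1a* rose past the threshold in shRNA-NC but not in shRNA-*Ddx5* cells. In shRNA-NC cells 5 of the 9 genes rose and none fell, while 18.6% of all genes rose and 15.2% fell (33.8% in all). In shRNA-*Ddx5* cells 4 of the 9 rose and none fell, while 13.5% of all genes rose and 13.5% fell (27% in all). The libraries with and without cytokines did not overlap for the 5 genes that rose in shRNA-NC cells and for no other of the 9, where 23.7% of all genes were higher and 22% lower in this way (45.7% in all). In shRNA-*Ddx5* cells 4 of the 9 were higher and 2, *Ccng1* and *Phlda3*, lower without overlap, where 23.3% of all genes were higher and 24% lower (47.3% in all). The medians over the 9 genes were 0.67 and 0.15, beside 0.02 and 1.4e-04 over all genes. The split over all genes was 2303 higher and 1878 lower in shRNA-NC cells, 1850 and 2529 with scaling to the sum of fragments, and 1815 and 2368 with quantile normalization. In shRNA-*Ddx5* cells it was 1671 and 1673, and 1398 and 2183 with quantile normalization. The cytokine comparison in each line uses the same libraries as the knockdown comparisons, so the values are not independent of those above.

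*Gadd45a* had the largest cytokine response of the 9 genes, 5.42-fold in shRNA-NC (log2 change 2.35, SE 0.12, adjusted p = 6.8e-08) and 8.30-fold in shRNA-*Ddx5* cells (2.75, adjusted p = 1.7e-08). In FPKM its increase was larger in shRNA-NC cells, 54.9 against 26.0. *Btg2* rose 4.25-fold in shRNA-NC (1.61, adjusted p = 1.6e-07) and 4.06-fold in shRNA-*Ddx5* cells (1.41, adjusted p = 3.5e-07), an increase of 5.58 and 3.61 FPKM. *Sesn2* went from 9.02, 8.47 and 6.71 to 18.8, 14.6 and 17.6 FPKM in shRNA-NC cells and from 9.13, 7.77 and 8.68 to 13.4, 15.2 and 15.4 FPKM in shRNA-*Ddx5* cells. Neither pair of *Sesn2* groups overlapped, and the log2 change was 0.99 (adjusted p = 9.7e-05) and 0.72 (adjusted p = 9.5e-04). *Trp53* rose 1.63-fold in shRNA-NC (0.67, adjusted p = 1.1e-04) and 2.00-fold in shRNA-*Ddx5* cells (0.93, adjusted p = 6.7e-06), an increase of 9.41 and 9.65 FPKM.

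*Mdm2*, *Ccng1*, *Phlda3* and *Zmat3* did not pass the test with cytokines in either cell line. *Mdm2* changed by 0.31 in shRNA-NC (adjusted p = 0.0821) and 0.06 in shRNA-*Ddx5* cells (adjusted p = 0.754), and the change in shRNA-NC cells was called without shRNA-NC medium replicate 3 (adjusted p = 0.0471) or without shRNA-NC cytokines replicate 2 (adjusted p = 0.0369). *Ccng1* changed by -0.29 in shRNA-NC (adjusted p = 0.0925) and by -0.35 in shRNA-*Ddx5* cells (adjusted p = 0.0537). With scaling to the sum of fragments both *Ccng1* changes were called, at -0.37 (adjusted p = 0.0290) and -0.39 (adjusted p = 0.0264). Both were also called without shRNA-NC cytokines replicate 1 (adjusted p = 0.0259 and 0.0274), and the change in shRNA-*Ddx5* cells also without shRNA-NC medium replicate 3 (adjusted p = 0.0307) or shRNA-*Ddx5* medium replicate 1 (adjusted p = 0.0250). *Phlda3* changed by 0.12 in shRNA-NC (adjusted p = 0.609) and by -0.42 in shRNA-*Ddx5* cells (adjusted p = 0.0806, and 0.0235 without shRNA-NC cytokines replicate 1), and *Zmat3* by -0.02 (adjusted p = 0.902) and 0.05 (adjusted p = 0.692). Leaving out a shRNA-NC library does not alter the changes in shRNA-*Ddx5* cells, only the spread shared by the groups.

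*Cdkn1a* was the 1 gene of the 9 whose cytokine response differed between the cell lines by the interaction term on the log2(FPKM + 1) scale, which 8.21% of all genes passed (3.46% higher and 4.75% lower). It gained 4.79 FPKM in shRNA-NC cells, 3.08-fold (log2 change 1.29, adjusted p = 3.9e-06), and 0.280 FPKM in shRNA-*Ddx5* cells, 1.19-fold (0.15, 95% confidence interval -0.07 to 0.38, adjusted p = 0.300). The difference of the 2 responses was -1.14 (SE 0.14, adjusted p = 8.1e-04). It ranged from -1.36 to -1.08 over 21 alternative fits and was called in each, with a highest adjusted p of 0.00662. *Trp53* and *Gadd45a* had differences in the other direction that were not called, 0.26 (adjusted p = 0.203) and 0.40 (adjusted p = 0.170), and those of *Btg2* (-0.20, adjusted p = 0.358), *Sesn2* (-0.27, adjusted p = 0.361) and *Mdm2* (-0.25, adjusted p = 0.447) were not called either. The difference of *Phlda3* was -0.53 (adjusted p = 0.189) and was called without shRNA-NC cytokines replicate 1 (-0.73, adjusted p = 0.0379). *Trp53*, *Cdkn1a*, *Gadd45a* and *Btg2* were higher with cytokines in shRNA-NC cells and lower after the knockdown with cytokines, as were 5.69% of all genes tested. All 4 were also lower in medium, as were 294 (2.38%) of all genes tested.

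**Figure D3:**
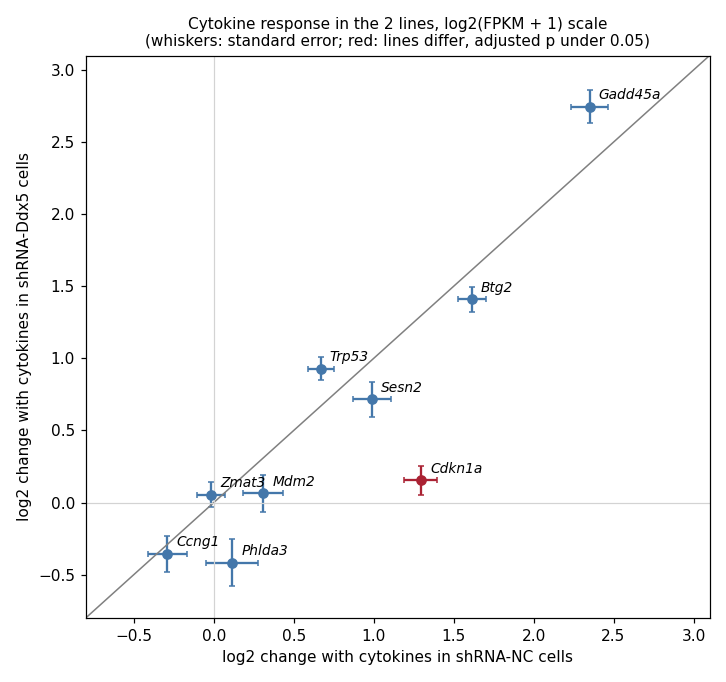
Change of the 9 tested genes with cytokines in shRNA-NC (x axis) and shRNA-*Ddx5* cells (y axis), as log2 differences on the log2(FPKM + 1) scale with whiskers for the standard error; the diagonal marks equal responses and red an interaction with an adjusted p under 0.05. *Cdkn1a* lies far below the diagonal (1.29 against 0.15), while *Gadd45a* (2.35 against 2.75) and *Btg2* (1.61 against 1.41) lie near it.

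The patterns of *Trp53* and *Cdkn1a* over the 12 libraries were compared with those of all other tested genes by Pearson's r of log2(FPKM + 1). The libraries fall into 4 groups, so a high r mostly reports like group means. *Trp53* was most like *Bcl10*, a signalling adaptor for NF-κB (r = 0.981), *Gadd45a* (0.979) and *Mfhas1* (0.976). *Cdkn1a* was most like *Snhg17*, a small nucleolar RNA host gene (0.981), *Egr1*, an immediate early transcription factor (0.979), and *Lrp11* (0.977). *Egr1* was at 68.1, 57.9 and 51.3 FPKM in shRNA-NC and 2.38, 2.29 and 1.59 in shRNA-*Ddx5* cells with cytokines. Among the 10 genes themselves, r was 0.963 between *Gadd45a* and *Btg2* and 0.747 between *Trp53* and *Cdkn1a*, and it was -0.418 between *Trp53* and *Ccng1*.

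Regulators of p53 were counted in the same way. Of 28 tested regulators and coactivators, a list that includes *Ddx5* itself, 5 rose and 12 fell in medium, and 4 rose and 10 fell with cytokines. Over all genes tested, 25.3% rose and 21.7% fell in medium, and 23.5% and 22.1% with cytokines. The medians of the list were -0.20 and -0.18, beside 0.03 and 0.01 over all genes. The 5 that rose in medium were *Ddx17*, *Cdkn2a*, *Kmt5a*, *Rchy1* and *Usp10*, the last 3 named after their values were seen. Other regulators were lower after the knockdown, without overlap of the libraries in either medium. Mean FPKM in medium (n = 3) went from 11.7 to 5.06 for *Crebbp* and from 35.7 to 22.9 for *Usp7*. It went from 9.84 to 5.96 for *Trp53bp2* and from 13.98 to 6.56 for *Sirt1*. With cytokines the means went from 8.34 to 5.09, 36.5 to 21.6, 12.5 to 5.73 and 15.6 to 5.97 in the same order. These genes were also named after their values were seen. *Mdm4*, which encodes an inhibitor of p53 related to MDM2, fell from 15.1 ± 1.32 to 10.7 ± 2.65 FPKM in medium (SD, n = 3, limma log2 change -0.48, adjusted p = 0.0150). The call was lost without shRNA-*Ddx5* medium replicate 1 (adjusted p = 0.0587) or 3 (adjusted p = 0.057), and with only the 6 libraries of the contrast (adjusted p = 0.0603). With cytokines *Mdm4* changed by -0.19 (adjusted p = 0.283). *Cdkn2a*, whose ARF product inhibits MDM2 and whose p16 product inhibits CDK4 and CDK6, rose from 239 ± 23.1 to 350 ± 78.2 FPKM in medium (SD, n = 3, limma log2 change 0.53, adjusted p = 0.0335) and from 301 ± 70.6 to 496 ± 18.9 with cytokines (SD, n = 3, limma log2 change 0.75, adjusted p = 0.0063). The call of *Cdkn2a* in medium was lost in 7 of 22 alternatives, among them scaling to the sum of fragments and fits without shRNA-NC medium replicate 2 or 3 or without shRNA-*Ddx5* medium replicate 1 (adjusted p up to 0.427). The table does not separate the 2 products. *Ppm1d*, a phosphatase that opposes p53, did not pass the test in medium (0.12, adjusted p = 0.396) or with cytokines (0.21, adjusted p = 0.142, and 0.0392 without shRNA-NC cytokines replicate 1).

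The wider set of known p53 targets held genes called in either direction, as did all genes tested. Of 71 further targets, 56 were tested, of which 12 rose and 16 fell in medium, where 25.3% of all genes rose and 21.7% fell. With cytokines 14 rose and 18 fell, where 23.5% of all genes rose and 22.1% fell. Their medians were 0.02 and -0.05, beside 0.03 and 0.01 over all genes. The subsets below are read against the same shares. Among 12 tested genes of cell cycle arrest, *Sesn1* and *Gtse1* rose and *Trp53inp1*, *Plk2* and *Btg1* fell in medium, of which *Gtse1* and *Btg1* were named after their values were seen. With cytokines 4 of the 12 rose and 4 fell. *Trp53inp1*, a cofactor of p53 that it also induces, had the largest change of the set in medium, from 7.17, 9.30 and 11.1 to 0.985, 2.14 and 1.92 FPKM (-1.94, adjusted p = 9.3e-06). With cytokines it fell as well (-1.11, adjusted p = 4.0e-04). *Plk2*, a polo-like kinase, fell in medium (-0.53, adjusted p = 0.0085) and with cytokines (-1.24, adjusted p = 3.4e-05), and *Sesn1*, a sestrin like *Sesn2*, rose in medium (0.47, adjusted p = 0.0015) and changed by -0.01 with cytokines (adjusted p = 0.943).

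Of 13 tested genes of apoptosis, 4 rose and 2 fell in each medium, where 25.3% of all genes rose and 21.7% fell in medium and 23.5% and 22.1% with cytokines. *Fas*, which encodes a death receptor, was at 0.271 ± 0.0780 and 1.48 ± 0.306 FPKM in shRNA-NC and shRNA-*Ddx5* cells in medium (SD, n = 3) and at 25.4 ± 4.11 and 100.3 ± 2.62 with cytokines (SD, n = 3). It rose after the knockdown in medium (0.96, adjusted p = 8.6e-05) and with cytokines (1.95, adjusted p = 8.3e-07). *Bid*, which encodes a BH3-only activator of cell death, rose by 1.06 (adjusted p = 1.2e-05) and 0.67 (adjusted p = 2.7e-04), and *Aen*, which encodes a nuclease, rose in medium (0.74, adjusted p = 9.8e-05). *Bax*, an effector of the mitochondrial pathway, was not called in medium (0.24, adjusted p = 0.265) or with cytokines (0.34, adjusted p = 0.127). *Bbc3* (PUMA) was not called either (-0.37, adjusted p = 0.179, and -0.14), although its change in medium was called without shRNA-NC medium replicate 3 (-0.67, adjusted p = 0.00345). *Pmaip1* (NOXA) is listed at 0 in all 12 libraries, and *Perp*, *Gdf15* and *Bcl2* were below the filter.

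Of 8 tested genes of DNA repair and nucleotide supply, 4 fell and 1 rose in medium, where 21.7% of all genes fell and 25.3% rose. With cytokines 3 fell and 1 rose, where 22.1% and 23.5% of all genes did. *Xpc*, which recognizes DNA lesions for excision repair, fell in medium (-0.81, adjusted p = 3.8e-05) and with cytokines (-0.97, adjusted p = 1.1e-05). *Rrm2b*, a p53-induced subunit of ribonucleotide reductase, fell by 0.34 in medium (adjusted p = 0.0307) and by 0.49 with cytokines (adjusted p = 0.0051), the former call being lost in 6 of 22 alternatives, among them those without shRNA-NC medium replicate 2 or 3 or shRNA-*Ddx5* medium replicate 1 (adjusted p up to 0.113). *Ddb2*, a sensor of ultraviolet damage, was not called (-0.36, adjusted p = 0.0581, and -0.27, adjusted p = 0.140), except in medium in 5 alternatives that included those without shRNA-NC medium replicate 1 and shRNA-*Ddx5* medium replicate 2. The gene that rose was *Fancc* of the Fanconi anaemia pathway, by 0.96 (adjusted p = 4.1e-05) and 0.70 (adjusted p = 3.5e-04).

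Of 23 tested targets with other roles, 5 rose and 7 fell in medium (25.3% and 21.7% of all genes) and 5 rose and 9 fell with cytokines (23.5% and 22.1% of all genes). *Igfbp3*, which binds insulin-like growth factors, went from 106.5 ± 10.4 FPKM to 336 ± 14.6 (SD, n = 3) after the knockdown in medium, a log2 change of 1.65 (limma adjusted p = 1.0e-06). With cytokines it went from 36.1 ± 4.63 FPKM to 286 ± 19.6 (SD, n = 3), a change of 2.96 (limma adjusted p = 3.5e-08). *Pvt1*, a long non-coding RNA, changed by -0.94 in medium (adjusted p = 4.7e-05) and -1.499 with cytokines (adjusted p = 2.2e-06), and *Gls2*, a mitochondrial glutaminase, by -0.85 and -0.81 (adjusted p = 1.5e-04 and 2.0e-04). *Tap1*, a peptide transporter of antigen presentation, fell in medium (-1.23, adjusted p = 2.1e-05) and changed by -0.05 with cytokines (adjusted p = 0.773). *Epha2*, an ephrin receptor, fell with cytokines (-1.42, adjusted p = 5.2e-07) and changed by 0.20 in medium (adjusted p = 0.0671, called without shRNA-NC medium replicate 1 or shRNA-*Ddx5* medium replicate 2). *Thbs1*, which encodes the matrix protein thrombospondin 1, rose with cytokines (1.77, adjusted p = 2.5e-04) and was not called in medium (0.57, adjusted p = 0.0916), where it was called without shRNA-NC cytokines replicate 1 or 2. Those libraries are outside the contrast in medium and left the change as it was.

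**Figure D4:**
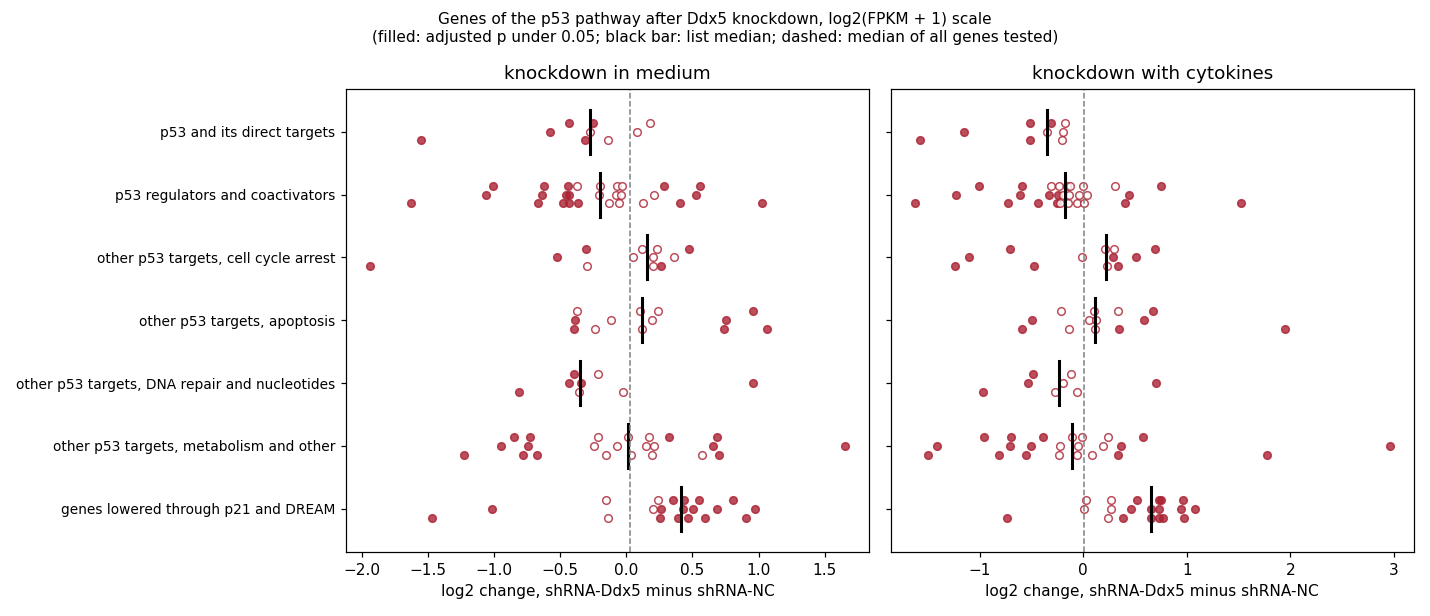
Change after *Ddx5* knockdown (x axes, log2 difference of shRNA-*Ddx5* minus shRNA-NC on the log2(FPKM + 1) scale) of each tested gene in 7 lists of the p53 pathway, in medium (left) and with cytokines (right); filled points have an adjusted p under 0.05, black bars are list medians and the dashed line the median of all genes tested. The 9 genes of the first row have medians of -0.27 and -0.35, and the list of genes known to be lowered through p21 and DREAM has medians of 0.41 and 0.65.

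p21 acts through the DREAM complex, which represses genes of the cell cycle. Of 20 such genes, all tested, 14 rose and 2 fell after the knockdown in medium, where 25.3% of all genes rose and 21.7% fell. With cytokines 14 rose and 1 fell, where 23.5% and 22.1% of all genes did. Their medians were 0.41 and 0.65, beside 0.03 and 0.01 over all genes. The genes that fell were *Cenpf* in both media (-1.46, adjusted p = 0.0013, and -0.74, adjusted p = 0.0486) and *Mki67* in medium (-1.01, adjusted p = 0.0082), and among those that rose were *Ccnb1*, the mitotic cyclin B1 (0.91 and 0.96), and *Cdk1*, its kinase (0.81 and 0.77). The libraries behind the falls in medium were uneven. *Cenpf* was at 11.4, 14.6 and 9.77 FPKM in shRNA-NC and 2.19, 6.81 and 2.96 in shRNA-*Ddx5* cells. *Mki67* was at 29.0, 34.9 and 22.2 in shRNA-NC and 8.58, 21.4 and 13.2 in shRNA-*Ddx5* cells. With cytokines 12 of the 20 fell and none rose in shRNA-NC cells (median -0.47), where 15.2% of all genes fell and 18.6% rose. In shRNA-*Ddx5* cells 4 fell and none rose (median -0.08), namely *Ccnb2*, *Aurka*, *Kif20a* and *Foxm1*, where 13.5% of all genes fell and 13.5% rose. *Cdc20* and *Kif20a* were the 2 of 20 that passed the interaction test, which 8.21% of all genes passed, with differences of 0.57 (adjusted p = 0.0421) and 0.40 (adjusted p = 0.0196). *Cdc20* fell by 0.39 with cytokines in shRNA-NC cells and changed by 0.18 in shRNA-*Ddx5* cells (adjusted p = 0.250), and *Kif20a* fell by 0.68 and 0.27. These DREAM genes were named after their values were seen. Whether their changes follow from that of *Cdkn1a* was not tested.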

How the data were processed

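RNA of 12 libraries was sequenced by the authors after selection of polyadenylated RNA. The submitters' processing notes name HISAT2 2.0.5, featureCounts 1.5.0-p3 and DESeq2 1.20.0, and the genome build they give (mm10) differs from the GRCm39 coordinates of the table. The deposited values are FPKM per gene, scaled by the authors by gene length and a library denominator (0.957 to 1.08 times the fragments on genes). Multiplied by gene length, all values (100% within 0.01) were whole multiples of 1 step per library, so the fragments behind each value could be recovered. The samples were grouped by their labels, which name the knockdown libraries KO in the table.

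Genes were tested if 3 or more libraries reached 1 FPKM, which left 12368. Their log2(FPKM + 1) values were fitted with limma 3.58.1 in R 4.3.3, using 4 group means, no covariate and a variance trend (lmFit, contrasts.fit, eBayes). In all, 5 two-sided contrasts were made with Benjamini-Hochberg adjustment over all genes tested and a threshold of 0.05. Differences on this scale are smaller than the true log2 fold for low genes. The 10 genes, the pathway lists and the tests were chosen with earlier results of these data known. Genes were named by rule: the 10 genes, *Ddx5* and *Ddx17*, 15 fixed genes of the lists, the 8 other p53 targets with the largest called change after knockdown in each medium, and the 3 genes most like *Trp53* and *Cdkn1a*. Other genes named were chosen after their values were seen, apart from the cell type markers. Data were simulated with the real means of 12368 genes, the same added spread for all genes and 200 changed genes. In a comparison laid out like the knockdown in medium, 184 of the 200 (92%) were recovered and 2.65% of the calls were false. The simulated spread was not taken from these libraries, and the real knockdown in medium called 5817 genes. The rates of the simulation therefore do not describe the real calls. p-values measure the spread between libraries, and fragment counts cover counting error only. Response elements were searched in GRCm39 and annotated with GENCODE. Results were recomputed with quantile normalization, with 0.1 as pseudocount, without the filter, with the filter applied to all 12 libraries, median-ratio rescaling, scaling to the sum of fragments, voom on the recovered fragments, eBayes without trend, only the 6 libraries of the contrast, a replicate block and each library left out in turn. Leaving out a library outside a contrast keeps its log2 changes and alters only the spread shared by the 4 groups, and with it the p-values. The deposited unit is FPKM, so the DESeq2 test of the authors was not rerun. The recovered fragments were fitted with voom alone. Plots were made in Python 3.11.15 (matplotlib 3.10.9).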

Additional observations from a re-analysis of the deposited data

Results flagged for a closer look

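Several of the genes named above had a knockdown effect that differed between the media by the interaction term of limma with Benjamini-Hochberg adjustment. The difference, with cytokines minus in medium on the log2(FPKM + 1) scale, was -1.14 for *Cdkn1a* (adjusted p = 8.1e-04), whose call held in all 21 alternatives. It was -1.61 for *Epha2* (adjusted p = 3.5e-05), 1.31 for *Igfbp3* (adjusted p = 4.9e-04), 1.18 for *Tap1* (adjusted p = 0.0022) and -0.68 for *Aen* (adjusted p = 0.0102), which were called in all 21 alternatives as well. For *Fas* it was 0.99 (adjusted p = 0.0050), but -0.11 with a pseudocount of 0.1 and -0.46 with voom on the recovered fragments, neither of them called. *Fas* had 10 to 13 fragments per library in shRNA-NC cells in medium. It was 0.49 for *Ddx17* (adjusted p = 0.0409), -0.48 for *Sesn1* (adjusted p = 0.0429), -0.56 for *Pvt1* (adjusted p = 0.0486) and -0.71 for *Plk2* (adjusted p = 0.0451). The call of *Ddx17* was lost in 9 of 21 alternatives, that of *Sesn1* in 18, that of *Pvt1* in 17 and that of *Plk2* in 13. Of the genes most like *Cdkn1a*, the difference was -3.74 for *Egr1* (adjusted p = 1.1e-04), -0.64 for *Lrp11* (adjusted p = 0.0102) and -0.57 for *Snhg17* (adjusted p = 0.0155), of which *Snhg17* lost its call in 1 of 21 alternatives and the others in 0. These 3 were selected for a pattern like that of *Cdkn1a*, so their differences are no independent support. Of the genes named after their values were seen, it was -0.47 for *Usp10* (adjusted p = 0.0121), called in all 21 alternatives, 0.40 for *Kif20a* (adjusted p = 0.0196), lost in 5, and 0.57 for *Cdc20* (adjusted p = 0.0421), lost in 12.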

How the results depend on the processing

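Over the alternatives, the changes of the 9 genes kept their direction and their side of the threshold in 939 fits, gained a call in 18, lost one in 11 and turned in 8. No scaling moved the median of all genes by over 0.1. The number of the 9 genes called ranged, with 1 library left out, from 3 to 6 for the knockdown in medium, from 5 to 6 with cytokines and from 1 to 2 for the interaction, and over all genes the interaction calls ranged from 559 to 1123 around 1016. The cause was not tested. Labels share replicate numbers between groups. Taken over all groups, libraries with the same number did not deviate together (r of -0.394 to 0.448, over 0.1 in 4 of 18 pairs, mean -0.045 against 0.0216 for other pairs), so the numbers were not taken as pairs. Between shRNA-NC and shRNA-*Ddx5* cells in medium these r were all positive (0.448, 0.0425 and 0.313). Between shRNA-NC cells in medium and with cytokines they were -0.368, 0.123 and -0.290. The replicate block called 5452 genes and 4 of the 9 for the knockdown in medium, 5232 and 5 with cytokines, 3769 and 5 for cytokines in shRNA-NC cells, 2902 and 4 in shRNA-*Ddx5* cells and 687 and 1 for the interaction. It lost the call of *Zmat3* in medium (adjusted p = 0.0575). No turned value passed the threshold. With quantile normalization the interaction was 0.0151 for *Ccng1*, 0.0529 for *Ddx5* and -0.00885 for *Gls2*, and the knockdown changed *Bax* by -0.0347 in medium and *Sesn1* by 0.00259 with cytokines. Scaling to the sum of fragments gave -0.0110 for *Sesn2* after the knockdown in medium and 0.0404 for the interaction of *Ddx5*, which was 0.0362 with median-ratio rescaling. The interaction was -0.11 for *Fas* and -0.00552 for *Gls2* with a pseudocount of 0.1, and -0.46 and -0.0137 with voom. Leaving out 1 library gave ranges that crossed 0 for the interaction of *Ccng1* (-0.17 to 0.0503), *Ddx5* (-0.0878 to 0.101), *Ppm1d* (-0.0348 to 0.18), *Bax* (-0.0479 to 0.26), *Ddb2* (-0.0100 to 0.24) and *Gls2* (-0.0675 to 0.11), for the knockdown in medium of *Sesn2* (-0.0342 to 0.15), for the knockdown with cytokines of *Sesn1* (-0.0491 to 0.0254) and *Tap1* (-0.16 to 0.0699) and for cytokines in shRNA-NC cells of *Zmat3* (-0.0955 to 0.0290). The interaction count over all genes fell to 628 without shRNA-NC medium replicate 2, to 600 without shRNA-*Ddx5* medium replicate 3, and to 610, 632 and 559 without shRNA-*Ddx5* cytokines replicates 1, 2 and 3. The interaction has no fit on 6 libraries alone, and *Btg2* was not tested where all 12 libraries had to reach 1 FPKM. Genes such as *Eda2r*, with 20 to 65 fragments per library, were too low to test.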
